A study of Homo sapiens with 6 samples.

Results

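The 9 genes described here act in MHC class I antigen presentation: HLA-B, HLA-C, HLA-E, HLA-F, B2M, TAP1, TAP2, PSMB9 and NLRC5. They were taken by name and found in the deposited tables by Ensembl identifier, 9 of 58735 identifiers in all, and all 9 were among the 12538 genes tested, whose means over the 6 libraries reached 1 FPKM. FPKM is the number of sequenced fragments scaled by gene length and library depth. The length here is that of all annotated exons merged, which can exceed the transcript, so FPKM compares libraries better than genes. The cells were SKOV3, an established human ovarian carcinoma line. In the TIPE2 group, lentivirus carrying human TIPE2 cDNA had been used, and in the Vector group the empty vector. The protocol gives 1 week of puromycin at 2 ug/ml to select stably overexpressing cells, and does not say whether each group was 1 pool or clone, which promoter drives the cDNA, or whether the 3 libraries of a group came from separate transductions. The titles call the libraries biological replicates without saying how they were made separate, so p-values measure the spread between these libraries, some of which may be technical.

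MHC class I molecules show fragments of a cell's own proteins to CD8 T cells. The proteasome cuts the proteins, in part with the immunoproteasome subunit PSMB9, and the transporter made of TAP1 and TAP2 carries the peptides into the endoplasmic reticulum. There they are loaded onto a heavy chain, such as those of HLA-B and HLA-C, paired with beta-2-microglobulin, the product of B2M. HLA-E and HLA-F are non-classical heavy chains, and HLA-E is the ligand of the natural killer cell receptor NKG2A. The transactivator NLRC5 acts at class I promoters together with factors of the X and Y boxes, and interferons and NF-kB raise the same genes. TIPE2, the product of TNFAIP8L2, is known mainly as a restraint on inflammatory signalling in immune cells.

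Recovered depth was even, between 15983317 and 18583473 fragments assigned to genes per library. TNFAIP8L2 had 58.4, 47.2 and 48.8 FPKM in TIPE2 1, 2 and 3 and 0, 0.0476 and 0 FPKM in Vector 1, 2 and 3, so the targeted gene followed the labels. Of 10 carcinoma markers, ERBB2 lay between 383 and 792 FPKM and KRT8 between 179 and 279 FPKM, whereas MUC1 lay between 1.12 and 3.86 FPKM, CDH1 between 0.238 and 1.83 FPKM and WT1 under 1 FPKM. All 17 leukocyte markers lay under 1 FPKM in every library, with a sum of 0.519 to 0.699 FPKM in TIPE2 and 0.395 to 0.827 FPKM in Vector libraries; CD3D, CD3E and FCGR3A were listed at 0 throughout. The 9 fibroblast and endothelial markers summed to between 2.09 and 8.96 FPKM in TIPE2 and between 2.26 and 5.43 FPKM in Vector libraries. Vector 1 stood apart in its composition, with an FPKM sum of 321815 where the other libraries had between 273366 and 292212.

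The promoters of these genes are shown because most of the 9 genes varied together from library to library, as described further on. Sequences are the 250 bases before the RefSeq start on GRCh38.p14, 5′ to 3′ on the strand of the gene; they are the reference, not the alleles of SKOV3. Of the 9 genes, 7 were matched in the RefSeq table, and HLA-E and NLRC5 were not matched. TAP1 is listed with 2 starts, of which the one facing PSMB9 is shown. Capitals mark letters searched on both strands, with the sequences in view: the CCAAT box of the Y box (CCAAT), the core of the CRE of the X box (TGACG), the interferon-stimulated response element in its canonical form (GAAA repeated after any 2 bases) and in a form shorter by a base (GAANNGAAA), and the NF-kB consensus. The 2 response element forms can overlap, as in TAP2.
HLA-B, chr6:31357180-31357429, minus strand: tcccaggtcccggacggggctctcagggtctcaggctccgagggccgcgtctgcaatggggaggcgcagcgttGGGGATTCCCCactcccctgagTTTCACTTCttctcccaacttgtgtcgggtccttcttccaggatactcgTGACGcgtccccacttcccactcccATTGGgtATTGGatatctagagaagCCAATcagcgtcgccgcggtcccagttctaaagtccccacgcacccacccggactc
HLA-C, chr6:31272093-31272342, minus strand: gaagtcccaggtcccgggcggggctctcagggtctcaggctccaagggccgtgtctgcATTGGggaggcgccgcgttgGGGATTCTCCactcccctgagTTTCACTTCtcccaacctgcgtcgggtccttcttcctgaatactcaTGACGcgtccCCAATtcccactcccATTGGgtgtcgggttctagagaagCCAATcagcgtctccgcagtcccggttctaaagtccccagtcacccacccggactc
HLA-F, chr6:29723184-29723433, plus strand: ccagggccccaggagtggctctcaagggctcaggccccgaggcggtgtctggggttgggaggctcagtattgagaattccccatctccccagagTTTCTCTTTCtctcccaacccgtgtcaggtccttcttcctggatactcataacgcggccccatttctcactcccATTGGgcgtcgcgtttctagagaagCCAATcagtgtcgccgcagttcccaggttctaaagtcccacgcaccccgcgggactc
B2M, chr15:44711267-44711516, plus strand: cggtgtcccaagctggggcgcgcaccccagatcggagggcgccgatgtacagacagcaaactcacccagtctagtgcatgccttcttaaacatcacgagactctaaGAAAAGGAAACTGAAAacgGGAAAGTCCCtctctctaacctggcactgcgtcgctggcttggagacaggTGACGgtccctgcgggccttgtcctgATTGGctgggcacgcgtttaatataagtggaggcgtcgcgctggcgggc
TAP1, chr6:32853705-32853954, minus strand: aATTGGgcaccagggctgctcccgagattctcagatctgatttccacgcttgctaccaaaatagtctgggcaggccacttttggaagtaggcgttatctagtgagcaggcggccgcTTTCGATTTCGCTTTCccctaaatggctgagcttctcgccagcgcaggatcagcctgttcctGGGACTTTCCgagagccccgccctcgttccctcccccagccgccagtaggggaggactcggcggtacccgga
TAP2, chr6:32838740-32838989, minus strand: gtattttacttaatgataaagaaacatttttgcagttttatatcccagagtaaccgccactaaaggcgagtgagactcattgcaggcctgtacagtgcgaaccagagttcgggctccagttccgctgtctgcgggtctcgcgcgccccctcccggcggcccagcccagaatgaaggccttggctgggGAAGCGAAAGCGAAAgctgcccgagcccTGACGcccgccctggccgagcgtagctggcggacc

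The HLA-B and HLA-C windows were identical in 89% of aligned columns, and HLA-F matched HLA-B in 79.8%. In HLA-B the order from the far end was NF-kB consensus, shorter response element, CRE core and 3 CCAAT boxes, and HLA-C held the same order of elements with a further CCAAT box upstream of them. HLA-F lacked matches to the NF-kB consensus and the CRE core and held the canonical response element. B2M on chromosome 15, with 47.3% identity to HLA-B, held the canonical response element, the NF-kB consensus, the CRE core and a CCAAT box. The canonical response element was found in 4 of the 7 windows (HLA-F, B2M, TAP1 and TAP2) and in 3.02% of 35116 promoter windows of this length. The shorter form was in 3 of 7 (HLA-B, HLA-C and TAP2) against 6.56% of all windows, and the NF-kB consensus in 4 of 7 (HLA-B, HLA-C, B2M and TAP1) against 9.96%. CCAAT was in 6 of 7 against 32% and TGACG in 5 of 7 against 21.2%. TAP1 and PSMB9 are transcribed away from each other from RefSeq starts 488 bases apart, and the 250 bases before PSMB9 held a CCAAT box and a CRE core. The CCAAT box counted for TAP1 is the same one, within the 13 bases that both windows cover. A match describes these letters and is not a measured binding site.

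The class I light chain was the most abundant of the 9 transcripts. B2M (ENSG00000166710; GRCh38 chromosome 15, 44711487 to 44718877) had 283, 289 and 219 FPKM in TIPE2 1, 2 and 3, while Vector 1, 2 and 3 had 306, 222 and 186 FPKM. Its mean was exceeded by 0.853% of tested genes. Vector 1 was the highest library and Vector 3 the lowest, so the Vector group spanned the whole TIPE2 group. The difference, TIPE2 minus Vector on the log2(FPKM + 1) scale, was 0.17 with a standard error of 0.22 and a 95% interval of -0.34 to 0.67 (limma, adjusted p = 0.875). It was 0.0066 without Vector 3 and 0.36 without Vector 1.

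Classical heavy chains lay just below. HLA-C (ENSG00000204525; chromosome 6, 31268749 to 31272130), recognised by killer cell immunoglobulin-like receptors, had 209, 244 and 155 FPKM in TIPE2 1, 2 and 3 and 209, 145 and 129 FPKM in Vector 1, 2 and 3. For HLA-B (ENSG00000234745; chromosome 6, 31269491 to 31357188) the values were 180, 197 and 120 FPKM in TIPE2 and 191, 110 and 106 FPKM in Vector libraries, in the same order. In both genes TIPE2 1, TIPE2 2 and Vector 1 were high and the other 3 libraries low, and the gap between these 2 sets was wider than the range within either. Set against this spread, the group differences were 0.34 ± 0.24 (SE) for HLA-C, with a 95% interval of -0.22 to 0.89, and 0.31 ± 0.28 for HLA-B, with an interval of -0.34 to 0.95 (limma, adjusted p = 0.842 and 0.848). With 1 library left out, HLA-C ran from 0.19 (without TIPE2 2 or Vector 3) to 0.54 (without Vector 1) and HLA-B from 0.16 (without Vector 3) to 0.58 (without Vector 1).

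The non-classical heavy chains had the same 3 libraries on top as the classical ones. HLA-E (ENSG00000204592; chromosome 6, 30489467 to 30494205) was at the level of HLA-B, with 180, 189 and 128 FPKM in TIPE2 and 173, 156 and 124 FPKM in Vector libraries. Its difference was 0.13 ± 0.20 (SE; limma, adjusted p = 0.892), with an interval of -0.35 to 0.60. HLA-F (ENSG00000204642; chromosome 6, 29722775 to 29738528), at 27.3, 30.5 and 19.9 FPKM in TIPE2 and 33.8, 24.5 and 17.6 FPKM in Vector libraries, was highest in Vector 1, as B2M was. Its difference was the smallest of the 9, 0.06 ± 0.25 (SE; limma, adjusted p = 0.954). HLA-G, another non-classical heavy chain, lay between 0 and 0.251 FPKM.

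How fragments matching more than 1 class I gene were counted is not given in the sources used here, so the split between the HLA genes is uncertain. In GENCODE 29 HLA-B and HLA-C share 35 exonic bases on the same strand, and 542 exonic bases of HLA-B lie opposite a pseudogene at no more than 0.0525 FPKM. Fragments of a gene and its antisense partner cannot be told apart without strand. Sums are less open to such a split. The 4 heavy chain genes together had 596, 661 and 423 FPKM in TIPE2 and 607, 436 and 375 FPKM in Vector libraries. Set against B2M, this sum gave ratios of 2.11, 2.28 and 1.93 for TIPE2 1, 2 and 3, against 1.98, 1.96 and 2.01 for Vector 1, 2 and 3. The height of this ratio depends on the merged exon lengths, 6079 bases for B2M against 2507 to 4342 for the heavy chain genes. In recovered fragments, TIPE2 1 had 33054 for B2M and 10530, 10078, 10276 and 2279 for HLA-B, HLA-C, HLA-E and HLA-F. Heavy chain transcripts are therefore not shown to outnumber those of B2M. Between libraries the lengths cancel, and the ratio of heavy to light chain transcripts ranged 1.19-fold, while B2M itself ranged 1.64-fold. The ratio overlapped between groups (exact two-sided permutation test on log2 ratios, p = 0.4, adjusted p = 0.9 over 7 ratios; the smallest p that 3 against 3 libraries can give is 0.1).

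**Figure D1:**
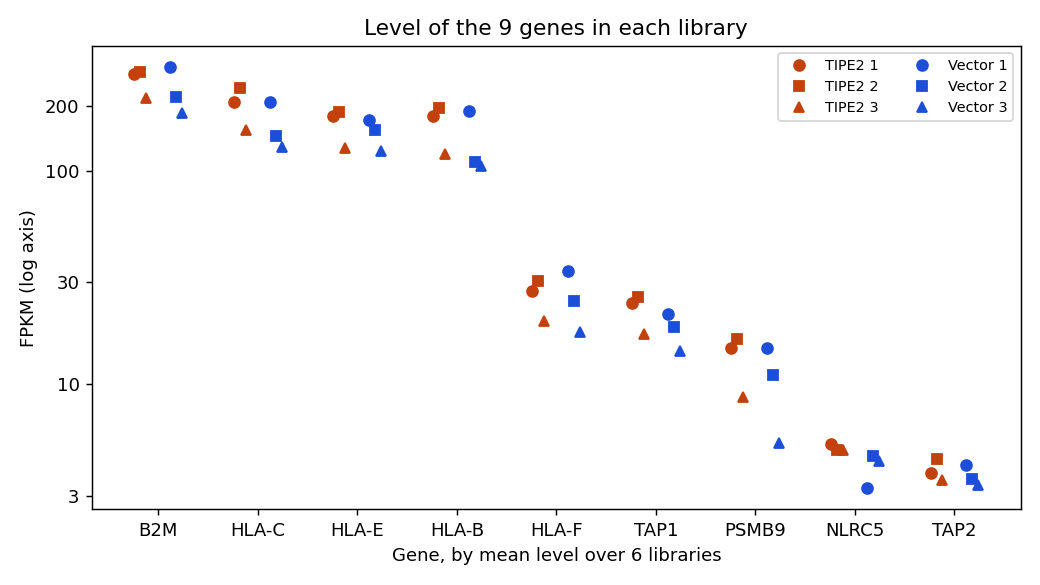
FPKM of the 9 genes (log axis) in each of the 6 libraries, TIPE2 in orange and Vector in blue, with circle, square and triangle for libraries 1, 2 and 3. In 8 genes the triangles of both groups lie low and Vector 1 lies with TIPE2 1 and 2; NLRC5 is the 1 gene with Vector 1 at the bottom.

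Both chains of the peptide transporter were measured, at unequal levels. TAP1 (ENSG00000168394; chromosome 6, 32845209 to 32853978) had 24.0, 25.6 and 17.2 FPKM in TIPE2 and 21.2, 18.6 and 14.3 FPKM in Vector libraries, with a difference of 0.29 ± 0.19 (SE; 95% interval -0.15 to 0.73; limma, adjusted p = 0.842). TAP2 (ENSG00000204267; chromosome 6, 32821833 to 32838780) had 3.82, 4.45 and 3.55 FPKM against 4.17, 3.59 and 3.39 FPKM, the narrowest range of the 9 at 1.31-fold, with a difference of 0.07 ± 0.12 (SE; limma, adjusted p = 0.908). TIPE2 2 was highest and Vector 3 lowest for both. TAP1 exceeded TAP2 in every library, 4.86- to 6.27-fold in TIPE2 and 4.21- to 5.18-fold in Vector libraries (exact two-sided permutation p = 0.3, adjusted p = 0.9 over the 7 ratios). Of the exonic bases of TAP2, 32.3% are shared with AL669918.1 on the same strand, a gene listed at 0 in all libraries. If shared fragments were left uncounted, TAP2 would read too low, and AL669918.1 could be listed at 0 for that reason. The size of the excess of TAP1 is therefore uncertain. Of the exonic bases of TAP1, 9.49% lie opposite PSMB8-AS1, which had between 0.972 and 3.14 FPKM.

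PSMB9 had the widest range of the 9, 3.07-fold between libraries. This subunit (ENSG00000240065; chromosome 6, 32844136 to 32859585) takes the place of PSMB6 when the immunoproteasome is assembled. Its values were 14.8, 16.3 and 8.74 FPKM in TIPE2 and 14.9, 11.1 and 5.30 FPKM in Vector libraries. The difference was the largest of the 9 and the least precise, 0.38 ± 0.36 (SE; 95% interval -0.46 to 1.22; limma, adjusted p = 0.848). It had 266 fragments in Vector 3, the fewest of any of the 9 genes in a library (exact Poisson 95% interval 235 to 299.96, counting error only). The library order was that of TAP2, TIPE2 2, Vector 1, TIPE2 1, Vector 2, TIPE2 3 and Vector 3, from high to low.

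The constitutive counterpart of PSMB9 had another order. PSMB6 had 34.0, 43.2 and 60.9 FPKM in TIPE2 and 69.3, 44.5 and 52.6 FPKM in Vector libraries, lowest in TIPE2 1. The ratio of PSMB9 to PSMB6 was therefore 0.435, 0.376 and 0.143 for TIPE2 1, 2 and 3, against 0.214, 0.250 and 0.101 for Vector 1, 2 and 3. TIPE2 1 and TIPE2 2 exceeded every Vector library in this ratio, and TIPE2 3 exceeded Vector 3 alone (exact two-sided permutation p = 0.3, adjusted p = 0.9 over the 7 ratios). Over all libraries the ratio ranged 4.31-fold, where that of PSMB9 to the neighbouring immunoproteasome gene PSMB8 ranged 1.61-fold. PSMB9 and PSMB8 share 139 exonic bases on opposite strands.

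Over the 6 libraries together, NLRC5 did not follow the genes it is known to activate. The gene (ENSG00000140853; chromosome 16, 56989485 to 57083531) had 5.25, 4.90 and 4.92 FPKM in TIPE2 and 3.26, 4.60 and 4.35 FPKM in Vector libraries. The lowest TIPE2 value exceeded the highest Vector value. NLRC5 was the 1 gene of the 9 whose groups did not overlap, where 11.5% of all tested genes had no overlap in either direction and 6.18% none with TIPE2 higher. Its correlation with the mean of the other 8 genes over the 6 libraries was -0.10, where each of those 8 had r between 0.905 and 0.979 with the mean of the rest. The difference was 0.26 ± 0.13 (SE; 95% interval -0.04 to 0.56; limma, unadjusted p = 0.0807, adjusted p = 0.834). By an exact permutation test, two-sided, p was 0.1, the lowest value that 3 against 3 libraries allow. Without Vector 1 the difference was 0.14. Vector 1, with the highest B2M and HLA-F, had the lowest NLRC5: the ratio of B2M to NLRC5 was 93.8 there and between 42.8 and 59.0 in the other libraries. This 1 library therefore weighs heavily in the correlation of -0.10, which was not computed without it. Among the remaining libraries, Vector 3 was lowest for NLRC5 as for the other 8 genes.

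**Figure D2:**
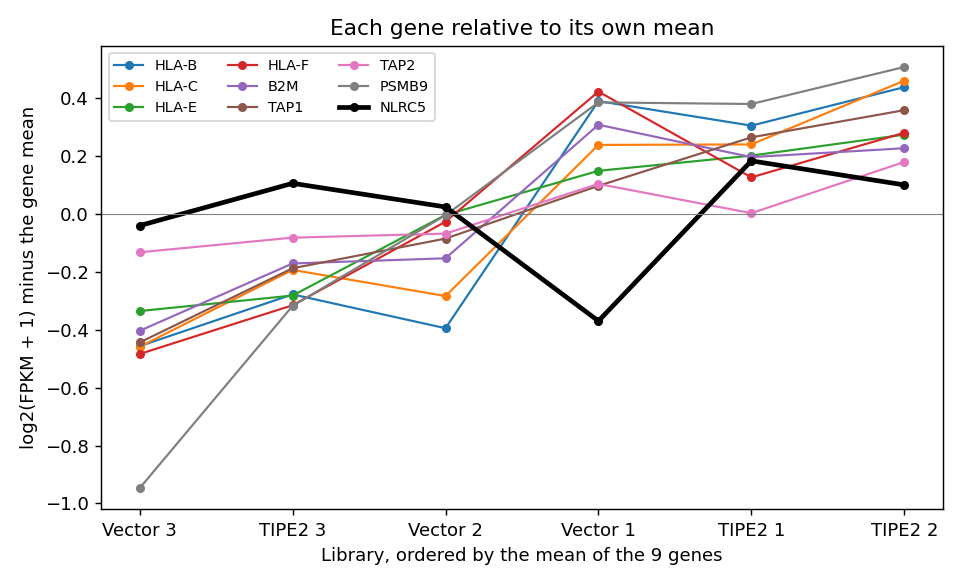
Log2(FPKM + 1) of each gene minus its own mean over the 6 libraries; libraries are ordered by the mean of the 9 genes and lines only join the points of 1 gene. The coloured lines lie lower in Vector 3, TIPE2 3 and Vector 2 than in Vector 1, TIPE2 1 and TIPE2 2, while NLRC5 (black) is lowest in Vector 1.

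The 9 levels fell into 3 steps of FPKM, whose spacing depends on the merged exon length of each gene. B2M, HLA-C, HLA-E and HLA-B had means between 150 and 251 FPKM over the 6 libraries, HLA-F, TAP1 and PSMB9 between 11.8 and 25.6, and NLRC5 and TAP2 had 4.55 and 3.83 FPKM. B2M exceeded each heavy chain in every library. HLA-C, HLA-E and HLA-B overlapped in their ranges, as did HLA-F with TAP1 and TAP1 with PSMB9, and NLRC5 exceeded TAP2 in all libraries except Vector 1.

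Library order, more than group, was what the genes had in common. In 8 of the 9, all except NLRC5, the 3 highest libraries were TIPE2 1, TIPE2 2 and Vector 1, an order read from the values; the same held for 6.73% of all tested genes. Vector 3 was the lowest library for the same 8, against 14.1% of all tested genes. TIPE2 2 was the highest for 6 of 9, against 10.3%. The mean of the 9 genes, relative to each gene's own mean, came to 0.21, 0.31 and -0.19 for TIPE2 1, 2 and 3, against 0.19, -0.11 and -0.41 for Vector 1, 2 and 3 (log2). TIPE2 3 thus lay below Vector 1 and Vector 2. With libraries scaled to an equal FPKM sum, which lowers Vector 1, the 3 named libraries were on top for 5 of 9 genes (3.88% of all tested genes) and Vector 3 was lowest for 6 (8.82%). NLRC5, already lowest in Vector 1, could under this scaling only stay lowest there. It was again the 1 gene without overlap between groups, against 9.8% of all tested genes.

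Between groups, no gene of the 9 passed the test. All 9 differences were positive, where 48.9% of tested genes were, with a median of 0.26 against -0.0056 over all tested genes. At an adjusted p under 0.05, 0 of 9 passed (limma), against 0.0239% of all tested genes (0.016% higher in TIPE2 and 0.00798% lower). At an unadjusted p under 0.05 it was 0 of 9 as well, against 5.99% in either direction and 3.01% higher in TIPE2; it was 2 of 9 without Vector 1 and 1 of 9 without TIPE2 3. Limma-voom on recovered fragments likewise gave 0 of 9 at either level, against 0.0319% of all genes at an adjusted p under 0.05. In such bulk libraries, fewer cells with a transcript and less of it per cell cannot be told apart. Adjusted p-values ran from 0.834 to 0.954. The median was 0.016 without Vector 3, with 6 of 9 differences positive, and 0.17 without TIPE2 2, with 7 of 9 positive.

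**Figure D3:**
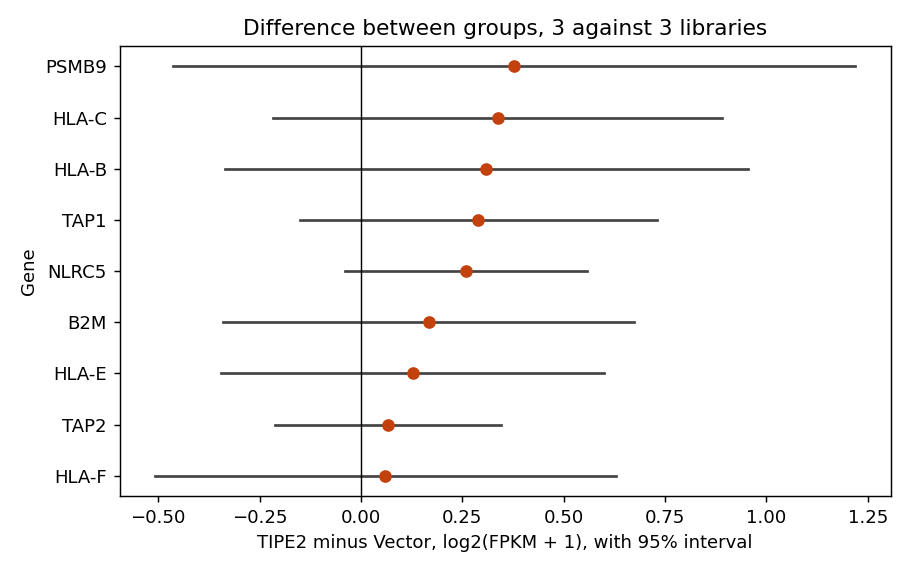
Difference between TIPE2 and Vector on the log2(FPKM + 1) scale for each gene (points) with its 95% interval from limma (bars), 3 libraries against 3. All 9 points lie right of 0 and all 9 intervals include 0.

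**Figure D4:**
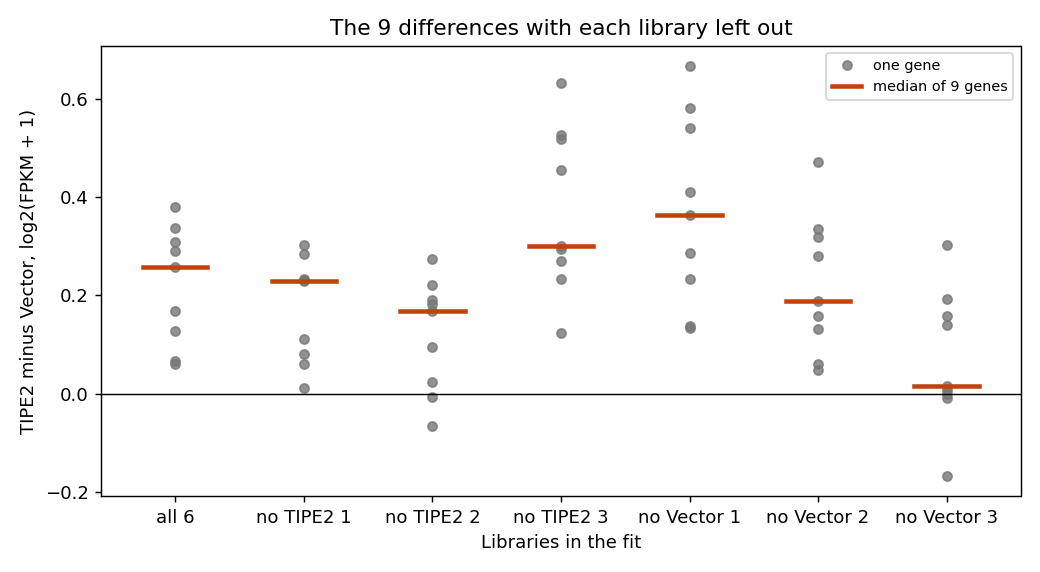
The 9 differences on the log2(FPKM + 1) scale (grey points) and their median (orange line) with all 6 libraries and with each left out. The median runs from 0.016 without Vector 3 to 0.36 without Vector 1.

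Among further genes of the pathway, from lists chosen beside the 9, none passed over all genes tested. Of 11 genes of peptide loading and protein folding in the endoplasmic reticulum, 9 were positive, with a median of 0.05. The peptide-trimming aminopeptidase ERAP2 had 16.1, 13.7 and 8.34 FPKM in TIPE2 and 7.77, 12.1 and 7.30 FPKM in Vector libraries (difference 0.43 ± 0.25, SE; limma, adjusted p = 0.834). Tapasin, the product of TAPBP that bridges the transporter and the heavy chain, had 32.7, 34.9 and 22.7 FPKM against 28.9, 29.8 and 20.2 FPKM, low in the third library of each group as TAP1 was. ERAP1 had 2.43 ± 0.500 against 2.02 ± 0.223 FPKM and the chaperone CANX 127 ± 9.35 against 115 ± 19.3 FPKM (SD, n = 3).

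The proteasome lists were less uniform. In the list of immunoproteasome and PA28 genes 3 of 6 were positive, with a median of -0.02. The other catalytic subunits had low values in the same library as PSMB9: PSMB8 had 31.8, 36.2 and 26.5 FPKM in TIPE2 and 36.8, 23.7 and 18.2 FPKM in Vector libraries, and PSMB10 had 8.68, 9.29 and 6.15 against 11.6, 6.78 and 4.10 FPKM. Each was highest in Vector 1 and lowest in Vector 3. Of the standard proteasome subunits tested, 9 of 9 were negative with a median of -0.16, none with an unadjusted p under 0.05. The activator subunit PSME3 had 42.3 ± 5.32 against 47.5 ± 4.96 FPKM and the assembly factor POMP 95.3 ± 14.2 against 103 ± 22.9 FPKM (SD, n = 3). PSMA3, PSMA7 and PSMA1, structural alpha subunits, had 35.3 ± 4.16, 232 ± 72.0 and 12.9 ± 1.60 FPKM in TIPE2 libraries, against 41.0 ± 8.70, 277 ± 55.3 and 14.6 ± 2.63 FPKM.

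Factors that act at class I promoters were split in direction, 6 of 13 tested being positive with a median of -0.02. In 3 of them the groups did not overlap, against 11.5% of all tested genes in either direction and 6.18% with TIPE2 higher. IRF2, an interferon regulatory factor that binds the same response elements as IRF1, had 7.62, 7.82 and 7.73 FPKM in TIPE2 and 5.63, 5.91 and 6.19 FPKM in Vector libraries (difference 0.34 ± 0.10, SE; limma, unadjusted p = 0.00774, adjusted p = 0.662). RFX5, a subunit of the complex on the X box, had 19.4, 18.2 and 17.5 FPKM against 13.3, 16.2 and 14.9 FPKM (difference 0.30 ± 0.11, SE; limma, unadjusted p = 0.0292, adjusted p = 0.800). Like NLRC5, both were lowest in Vector 1. RELA, the main activating NF-kB subunit, named after its values were seen, was lower in each TIPE2 library, as 5.31% of all tested genes were, with 31.8 ± 0.788 against 35.3 ± 2.16 FPKM (SD, n = 3; limma, adjusted p = 0.844). NFKB1 had 8.32 ± 1.10 against 9.95 ± 0.793 FPKM and NFYA, a subunit of the factor on the CCAAT box, 11.8 ± 0.943 against 10.4 ± 0.726 FPKM. CIITA, the class II counterpart of NLRC5, did not exceed 0.0884 FPKM.

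The interferon gamma receptor pathway showed no common direction, with 4 of 10 tested genes positive and a median of -0.02. STAT2 had 10.6 ± 0.952 against 8.56 ± 1.14 FPKM, whereas IRF1 had 4.14 ± 0.363 against 5.02 ± 1.12 FPKM and the receptor chain IFNGR1 23.2 ± 5.02 against 26.8 ± 6.90 FPKM (SD, n = 3). The kinase JAK1 had 32.3 ± 1.57 against 30.4 ± 5.49 FPKM. Of 6 tested genes reported as repressors of class I genes, 3 were positive, with a median of -0.01. NR2F2, an orphan nuclear receptor, was the 1 of these 6 without overlap between groups, against 6.18% of all tested genes with TIPE2 higher, with 13.6, 13.5 and 10.98 FPKM in TIPE2 and 10.3, 9.19 and 9.67 FPKM in Vector libraries (difference 0.35 ± 0.12, SE; limma, adjusted p = 0.757). SETDB1, DNMT1 and EED, which act on histones or DNA, had adjusted p-values between 0.844 and 0.853 (limma).

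The genes most alike in pattern were sought among 7194 other genes averaging 5 FPKM or more, by Pearson's r with the mean of the 9 over the 6 libraries. All points share libraries and scaling, and r is a description. IDO1, a tryptophan-degrading enzyme, had r = 0.990, with 61.2, 64.5 and 36.3 FPKM in TIPE2 and 58.3, 38.8 and 31.0 FPKM in Vector libraries. It was high in the same 3 libraries as the class I genes. NLRX1, ITM2B, TRAPPC12, ALDH3A1, MAGED1, D2HGDH, C1R and KLHL22 had r between 0.981 and 0.989, and each was highest in the same 3 libraries. Values are given for C1R, a complement protease, with 7.46, 8.62 and 3.28 against 7.49, 4.44 and 2.93 FPKM. ITM2B had 91.8, 92.4 and 70.3 against 84.8, 75.5 and 62.4 FPKM. Whether these genes share a function with the 9 was not tested.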

How the data were processed

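RNA sequencing of 3 TIPE2 and 3 Vector libraries of SKOV3 cells was deposited by the authors as 1 table of FPKM values per library, per the file headers. CASAVA 1.7, Bowtie and the mouse build mm8 are named in the submitters' processing notes. All 58735 identifiers were nevertheless human ones of GENCODE 29, so gene names and coordinates are those of GENCODE 29 on GRCh38. How fragments were counted, with what use of strand and of shared reads, is not given in the sources used here. Multiplying FPKM by merged exon length recovered fragments, whole to within 0.01 for 100% of values above 0. Intervals on fragments cover counting error only, since fragments carried no molecular identifiers and are not independent molecules.

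Values of log2(FPKM + 1) for genes averaging 1 FPKM or more entered limma 3.58.1 (R 4.3.3; trend and robust settings on), with no covariate and Benjamini-Hochberg adjustment over all 12538 genes. Fold changes on this scale understate those of low genes. The steps were tested on simulated data whose changes were larger than the differences of the 9 genes. That test therefore does not cover differences of their size. Single values and ratios were tested with exact two-sided permutation tests in scipy 1.17.1 (Python 3.11.15). The 9 genes and the lists were chosen with earlier results of these data known. Named are the 9 genes, TNFAIP8L2, up to 4 genes of each list by smallest p and the 10 genes most alike in pattern, 1 of which is not reported here; PSMB10, RELA and marker, class II, HLA-G, CIITA and CD274 values were added after their values were seen. Ratios and further scalings were also added after seeing the data. Alternatives were a block for replicate number, leaving out each library, quantile normalization, equal FPKM sums, other filters, a pseudocount of 0.1, limma without trend and robust settings, limma-voom on recovered fragments, and the 9 genes without the HLA genes.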

Additional observations from a re-analysis of the deposited data

How the results depend on the processing

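All 9 differences kept their sign with quantile normalization, equal FPKM sums, a pseudocount of 0.1 and limma-voom. Dropping the filter or the trend and robust settings cannot move the differences, only their p-values. None of the 9 genes passed under any alternative, the lowest adjusted p (limma) being 0.354 without TIPE2 3. TAP2 and NLRC5 drop out with a minimum mean of 5 FPKM, and the 7 genes left keep the same positive differences by construction. The 5 genes left without the HLA genes, a part of the same 9 positive values, had a median of 0.26. Over the libraries left out in turn, the number positive lay between 6 and 9 and the median between 0.016 and 0.36. HLA-F then ran from -0.17 to 0.29, HLA-E from -0.0082 to 0.30, TAP2 from -0.0074 to 0.13 and PSMB9 from -0.00050 to 0.67. TAP1 ran from 0.14 to 0.46 and NLRC5 from 0.14 to 0.33. HLA-F turned negative without TIPE2 2 or Vector 3, TAP2 without TIPE2 2, and HLA-E and PSMB9 without Vector 3. The log2 differences of ratios ran from -0.042 to 0.091 for HLA-C to HLA-B, from -0.083 to 0.27 for PSMB9 to PSMB8, from -0.15 to 0.31 for PSMB9 to TAP1 and from -0.37 to 0.20 for B2M to NLRC5, which turned positive without Vector 1.

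Over all tested genes, 3 passed, and 1 passed with the replicate number as a block, with equal FPKM sums, with no filter and with a minimum mean of 5 FPKM; between 1 and 11 passed with a library left out, 11 without TIPE2 3. The cause was not tested. The block cannot move the 9 differences, since each replicate number holds 1 TIPE2 and 1 Vector library. It moved the lowest of their adjusted p-values (limma) from 0.834 to 0.862. Same-numbered libraries had deviations correlated at -0.23, 0.15 and 0.19 over 12538 genes, and TIPE2 1 correlated best with Vector 2 (0.33), so the numbers do not show a pairing. Whether depth or the spread between libraries limited the calls was not tested; the fewest fragments behind a value of the 9 genes were 266.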

Other observations

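Other genes that T cells and natural killer cells read on the cell surface ranged widely in level. Of 15 non-classical and class I-like genes, 8 were tested and 3 of these were positive, with a median of -0.09. MICB, a stress-induced ligand of the activating receptor NKG2D, had 0.726, 1.47 and 1.31 FPKM in TIPE2 and 2.13, 1.94 and 1.44 FPKM in Vector libraries (limma, unadjusted p = 0.0505, adjusted p = 0.827). Its relatives ULBP2 and MICA had 2.70 ± 0.126 against 3.34 ± 0.862 FPKM and 8.80 ± 0.997 against 9.93 ± 1.55 FPKM (SD, n = 3), and PROCR, the protein C receptor, 4.99 ± 0.233 against 5.58 ± 0.870 FPKM. All 5 tested genes of a list of checkpoint, adhesion and other surface ligands were negative, with a median of -0.06. Apart from NECTIN2, their differences were small, between -0.14 and -0.037. NECTIN2, a ligand of TIGIT and DNAM-1, was the 1 of these 5 without overlap between groups, against 5.31% of all tested genes with TIPE2 lower, with 22.9, 25.3 and 25.2 FPKM in TIPE2 and 34.1, 31.1 and 26.0 FPKM in Vector libraries (limma, adjusted p = 0.833). The adhesion ligand CD58 had 7.19 ± 1.54 against 7.94 ± 0.326 FPKM, CD276 26.3 ± 3.60 against 27.5 ± 2.39 FPKM and CD47 16.2 ± 1.38 against 16.7 ± 2.11 FPKM. CD274, the ligand PD-L1, lay between 0.127 and 0.341 FPKM.

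Class II genes were close to undetected. Of 13, 11 stayed under 1 FPKM in every library and 4 were listed at 0 throughout. HLA-DMA, a peptide exchange factor, had 2.05, 2.39 and 1.68 FPKM in TIPE2 and 2.20, 1.68 and 0.990 FPKM in Vector libraries, and the protease CTSS 1.34, 1.57 and 0.766 against 1.96, 1.67 and 0.796 FPKM. Among 9 class I pseudogenes 8 stayed under 1 FPKM; HLA-H had 3.18, 2.24 and 1.696 against 4.74, 2.15 and 1.40 FPKM. Of 8 carcinoma markers tested, 2 did not overlap between groups, both lower in TIPE2, against 5.31% of all tested genes. These were the keratins KRT7 and KRT18, with 151 ± 13.7 against 309 ± 71.8 FPKM and 71.6 ± 4.23 against 107 ± 24.2 FPKM (limma, adjusted p = 0.343 and 0.743).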
